A study of Mus musculus with 6 samples.

Results

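The miR-132/miR-212 cluster consists of a pair of miRNA hairpins, Mir212 and Mir132, that lie side by side and are cut from one primary transcript. Its rows were taken by name from the deposited table of mature miRNAs, of which 370 had a sequence in the RefSeq reference and 81 had none. Of the 4 mature arms, 3 had a row, namely mmu-miR-212-3p, mmu-miR-132-3p and mmu-miR-212-5p, and mmu-miR-132-5p was not analysed here. The cluster was selected on its measured levels in small EVs and in cells, foremost the difference of mmu-miR-212-3p, so these levels are given as a description without a test.

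Small RNA NGS was performed on 3 libraries of small extracellular vesicles (small EVs) and 3 libraries of T cell blasts grown in the same way, numbered 1, 2 and 5 in both groups and described as independent experiments. Wild-type C57BL/6 mice between 8 and 12 weeks of age gave the spleens, and every culture began with all spleen cells. Red cells were lysed, and the T cell mitogen concanavalin A was added at 2 μg/ml in medium with 10% FBS. From 36 h on, they grew in 50 U/ml IL-2 and 10% serum depleted of exosomes. Small EVs were pelleted on day 6 from the culture medium, with a last spin at 100000 g. The protocol names no sort for T cells, although the study's text also calls the cells CD4+. Both groups are bulk RNA, in which fewer cells of a type and less RNA per cell cannot be told apart. All 7 miRNAs on a T lymphocyte list had reads in both groups. In limma at an adjusted p under 0.2, 4 were higher in small EVs, 2 lower and 1 not called. Over all miRNAs 21.1% were higher and 12.4% lower. With same-numbered libraries as blocks, 3 of the list were lower. The summed level of all 7 ranged over 73598 to 99072 CPM among small EVs and over 89252 to 110719 CPM among T cell blasts.

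A miRNA hairpin is processed by Drosha and Dicer into a short duplex, and one of its strands, the guide, is usually kept in an Argonaute protein while the other is mostly lost. The guide finds its target mRNAs chiefly through its seed, bases 2 to 8 from the 5′ end. The Mir132 and Mir212 genes are known as targets of the transcription factor CREB, are best studied in neurons, where miR-132 supports dendrite growth, and are also expressed in immune and vascular cells. For both hairpins the 3p arm is the usual guide.

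The mature sequences (RefSeq, GRCm38.p6) are shown because the 3p arms carry one seed and yet differed in how far small EVs and cells were apart. Capitals mark the seed.
mmu-miR-212-3p: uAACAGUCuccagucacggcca
mmu-miR-132-3p: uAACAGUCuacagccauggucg
mmu-miR-212-5p: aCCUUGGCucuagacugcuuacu
mmu-miR-132-5p: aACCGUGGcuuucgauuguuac

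Both 3p arms were 22 bases long and identical over their first 9 bases. They had the same base at 17 positions and differed at the other 5, which are A10C, C14U, U17C, U20C and G22A, with positions counted from the 5′ end and the base of mmu-miR-132-3p given first. Among 1679 mature mouse miRNAs of the reference, only mmu-miR-212-3p and mmu-miR-132-3p had the seed AACAGUC. The 5p arms did not share a seed with each other or with any other of these miRNAs.

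The hairpins are shown with their mature arms in capitals, since the comparison of arms below concerns the first of them.
Mir212: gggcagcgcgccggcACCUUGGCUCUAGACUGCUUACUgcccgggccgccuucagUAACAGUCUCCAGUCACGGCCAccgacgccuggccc
Mir132: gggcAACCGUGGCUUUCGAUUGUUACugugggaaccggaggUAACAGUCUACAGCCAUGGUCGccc

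Mir212 lies at chr11:75173388-75173478 and Mir132 at chr11:75173682-75173747, both on the plus strand of GRCm38, with 203 bases between them. In GENCODE both fall in intron 1 of the 3-exon noncoding gene 1700016P03Rik, which runs in the same direction. The mature arms start and end at chr11:75173443-75173464 for mmu-miR-212-3p, chr11:75173723-75173744 for mmu-miR-132-3p and chr11:75173403-75173425 for mmu-miR-212-5p.

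All 3 measured arms were higher in small EVs than in T cell blasts, and mmu-miR-212-3p was by far the furthest apart. Values are CPM, reads per 1000000 reads scaled by the TMM method, as deposited. A single read was worth 2.09 to 3.47 CPM in libraries of small EVs and 3.67 to 4.79 CPM in those of cells. The libraries held 261393 to 463498 reads over the listed miRNAs in small EVs and 236432 to 279737 in T cell blasts.

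The guide of Mir212, mmu-miR-212-3p, had 283, 330 and 250.0 CPM in small EVs 1, 2 and 5, against 26.2, 18.3 and 4.79 CPM in T cell blasts 1, 2 and 5. These values came from 135, 151 and 72 reads in small EVs and 7, 5 and 1 reads in cells. The lowest library of small EVs was 9.53 times as high as the highest library of cells, and T cell blasts 5 stood below the other cell libraries with a value under the 14.4 CPM that 3 reads were worth there, the limit that a count of 0 allows. The means were 288 ± 40.1 CPM in small EVs and 16.4 ± 10.8 CPM in cells (SD, n = 3 each), a ratio of 17.5. The mean of log2(CPM + 1) was higher by 4.31 in small EVs (standard error 0.55, limma). This standard error is moderated, which means that it also draws on the spread of all other listed miRNAs. Without T cell blasts 5 the difference was 3.64 on this scale and the ratio of means 12.9. From the summed reads, 358 in small EVs and 13 in cells, the ratio was 16.9 with a 95% interval of 9.73 to 32.0 (exact binomial, counting error only).

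The guide of Mir132, mmu-miR-132-3p, was also higher in small EVs, by a much smaller factor. It had 174, 107 and 128.5 CPM in small EVs 1, 2 and 5 and 56.2, 36.7 and 47.9 CPM in T cell blasts 1, 2 and 5, from 83, 49 and 37 reads in small EVs and 15, 10 and 10 reads in cells. The groups did not overlap, and the lowest library of small EVs was 1.90 times as high as the highest library of cells. The means were 136 ± 34.1 CPM in small EVs and 46.9 ± 9.80 CPM in cells (SD, n = 3 each), a ratio of 2.91. The difference in mean log2(CPM + 1) was 1.51 (moderated standard error 0.29, limma), and the ratio of summed reads was 2.96, with a 95% interval of 2.04 to 4.38.

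The other arm of Mir212, mmu-miR-212-5p, was closer to mmu-miR-132-3p than to its own guide in how far the groups were apart. It had 67.0, 52.4 and 52.1 CPM in small EVs 1, 2 and 5, against 22.5, 10.998 and 14.4 CPM in T cell blasts 1, 2 and 5. It rested on 32, 24 and 15 reads in small EVs and on only 6, 3 and 3 reads in cells. Its means of 57.2 ± 8.54 CPM in small EVs and 15.9 ± 5.90 CPM in cells (SD, n = 3 each) gave a ratio of 3.59. The difference in mean log2(CPM + 1) was 1.83 (moderated standard error 0.38, limma), and the ratio of summed reads was 3.62, with a 95% interval of 1.95 to 7.34. This interval overlapped that of mmu-miR-132-3p and lay below that of mmu-miR-212-3p.

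**Figure D1:**
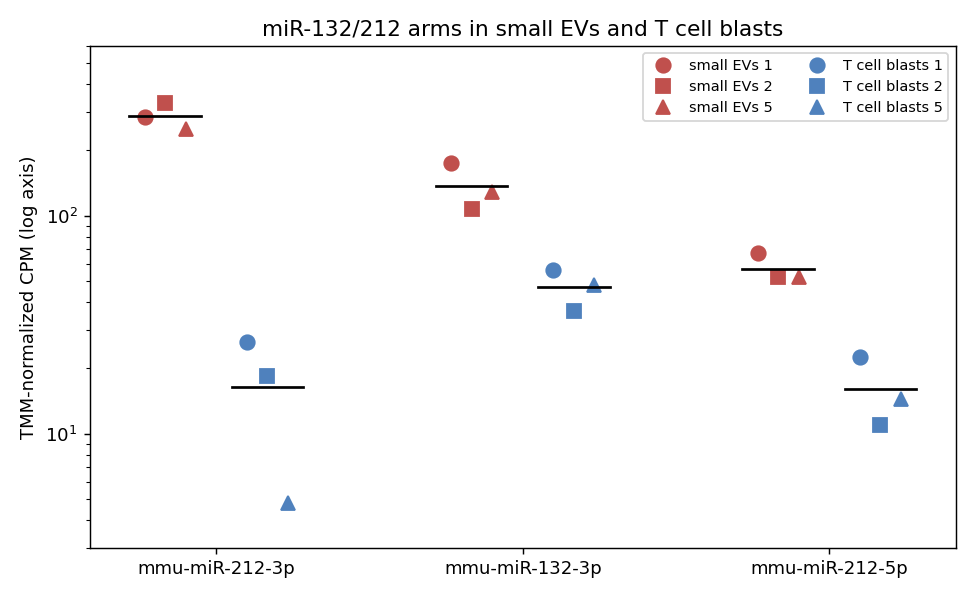
TMM-normalized CPM on a log axis for the 3 measured arms, with one point per library, red for small EVs and blue for T cell blasts, and a black line at each mean. For mmu-miR-212-3p the small EVs lie between 250.0 and 330 CPM and the cells between 4.79 and 26.2 CPM, a wider gap than for the other arms.

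The 3 members had groups that did not overlap and were higher in small EVs, as were 20.4% of all listed miRNAs. With limma on log2(CPM + 1), 21.1% of all miRNAs were called higher and 12.4% lower. The threshold was that of the methods, a Benjamini-Hochberg adjusted p under 0.2. No call is given for the members, since this contrast chose them. The median difference over all miRNAs was 0.02. In order of the difference, mmu-miR-212-3p was in place 7, mmu-miR-212-5p in place 53 and mmu-miR-132-3p in place 62. The place of mmu-miR-212-3p ran from 4 to 19 over the alternative settings and was 17 without T cell blasts 5.

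**Figure D2:**
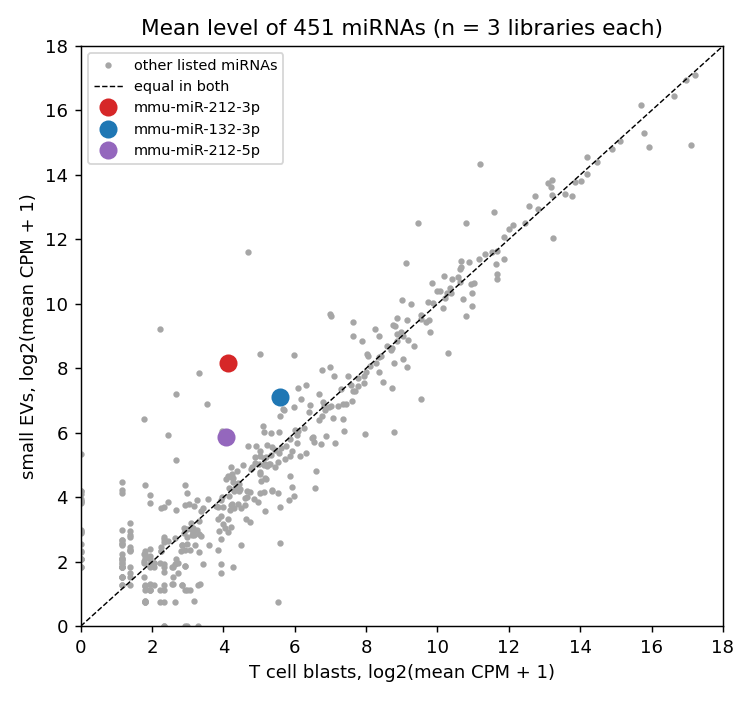
Mean level of each listed miRNA in T cell blasts (x axis) and in small EVs (y axis), both as log2(mean CPM + 1), with the miR-132/miR-212 arms in colour and a dashed line of equal levels. The 3 arms lie above the line, mmu-miR-212-3p furthest, among miRNAs of low to middle abundance.

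The order of the members by measured level differed between the groups. The study's text warns that small RNA sequencing is biased for particular miRNAs. The part of this bias in an order between miRNAs was not tested. In each small EV library, mmu-miR-212-3p was the most abundant of the members, followed by mmu-miR-132-3p and then mmu-miR-212-5p. In each library of cells, mmu-miR-132-3p was the most abundant, and the arms of Mir212 were not distinguishable at this depth, with 13 reads for the 3p arm and 12 for the 5p arm in all cells together. Among all listed miRNAs, the median rank of mmu-miR-212-3p by level was 103 in small EVs and 234 in T cell blasts, and that of mmu-miR-132-3p was 133 in small EVs and 170 in T cell blasts.

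Because the 3p arms have one seed, their sum gives the measured level of that seed. It was 457, 437 and 378 CPM in small EVs 1, 2 and 5, against 82.4, 55.0 and 52.6 CPM in T cell blasts 1, 2 and 5. The means were 424 ± 40.6 CPM in small EVs and 63.3 ± 16.6 CPM in cells (SD, n = 3 each), so the summed CPM of the seed was 6.69 times as high in small EVs. Most reads of this seed came from mmu-miR-212-3p in small EVs and from mmu-miR-132-3p in T cell blasts. The sum adds different miRNAs and is subject to the same sequencing bias.

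The balance between the guides can be read within each library, where the scaling between libraries cancels out. Of the reads of both 3p arms, mmu-miR-212-3p made up 61.9% in small EVs 1 (95% exact binomial interval 55.1 to 68.4%), 75.5% in small EVs 2 (68.9 to 81.3%) and 66.1% in small EVs 5 (56.4 to 74.9%). It made up 31.8% in T cell blasts 1 (13.9 to 54.9%), 33.3% in T cell blasts 2 (11.8 to 61.6%) and 9.09% in T cell blasts 5 (0.23 to 41.3%). All libraries of small EVs thus lay above all libraries of cells, but the intervals of small EVs 1 and 5 overlapped with that of T cell blasts 2. With libraries summed, the share was 67.9% of 527 reads in small EVs (63.8 to 71.9%) and 27.1% of 48 reads in cells (15.3 to 41.8%), which gives an odds ratio of 5.68 (95% interval 2.85 to 12.03, counting error only). Without T cell blasts 5 the share in cells was 32.4% of 37 reads (18.01 to 49.8%). As log2 of the ratio of mmu-miR-212-3p to mmu-miR-132-3p, with 1 added to each CPM, the mean was 1.09 ± 0.47 in small EVs and -1.70 ± 1.19 in cells (SD, n = 3 each). The difference of 2.79 became 2.11 without T cell blasts 5.

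The arms of the Mir212 hairpin also differed in balance. The 5p arm made up 19.2%, 13.7% and 17.2% of the Mir212 reads in small EVs 1, 2 and 5, and 46.2%, 37.5% and 75.0% in T cell blasts 1, 2 and 5. The cell values rested on 13, 8 and 4 reads, so their intervals were wide, for example 8.52 to 75.5% in T cell blasts 2. Summed over libraries, the 5p share was 16.6% in small EVs, from 71 reads of the 5p and 358 of the 3p arm (13.2 to 20.4%), and 48.0% of 25 reads in cells (27.8 to 68.7%). Without T cell blasts 5 it was 42.9% of 21 reads in cells (21.8 to 66.0%, counting error only). This interval lay just above that of the summed small EVs, whereas intervals of single libraries overlapped between the groups.

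**Figure D3:**
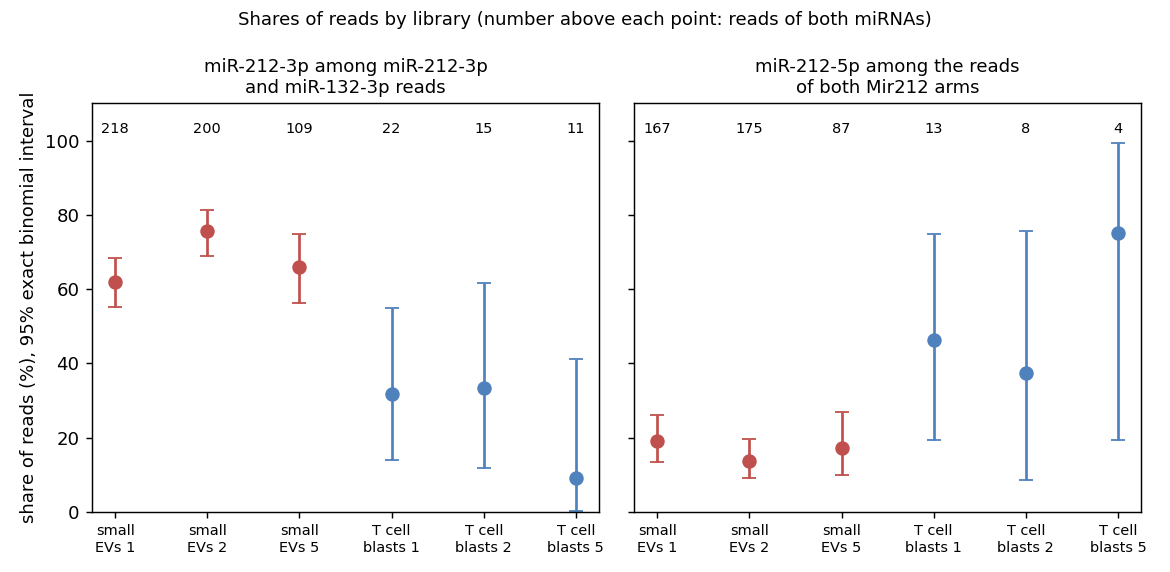
Share of reads in percent, by library, for mmu-miR-212-3p among the reads of both 3p arms (left) and for mmu-miR-212-5p among the reads of both Mir212 arms (right), with 95% exact binomial intervals and the number of reads of both above each point. The 3 small EV libraries lie at 61.9 to 75.5% on the left and 13.7 to 19.2% on the right, and the cell libraries lie lower on the left and higher on the right with much wider intervals.

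To place these differences, the same values were taken for other hairpins, as a description. A list of 20 transcripts that carry several guides was used, of which 16 had at least 2 listed guides with a mean of 10 CPM or more. The list held only guides made from a single locus. Guides made from several loci were left out, and so were the differences they would give, so the order below holds only within this list. The difference between mmu-miR-212-3p and mmu-miR-132-3p, 2.79 on the log2 scale, was the largest of the 16, and also under each of the 17 alternative settings. Over the other 15 transcripts the largest difference between guides was 0.10 to 1.32, with a median of 0.64. The next was that of mmu-miR-221-3p (difference between small EVs and cells 0.79) and mmu-miR-222-3p (-0.52). Over all libraries neither passed in limma without a block, and both passed with the replicate block (adjusted p = 0.00476 and 0.0783). Without T cell blasts 5 and without a block, mmu-miR-221-3p was at 1.39 and passed (adjusted p = 0.108, limma), and mmu-miR-222-3p was at 0.043. The smallest were those of mmu-miR-191-5p (0.47) and mmu-miR-425-5p (0.36) and of mmu-miR-23b-3p (0.04) and mmu-miR-27b-3p (-0.17). The cell values of mmu-miR-212-3p rested on 13 reads, whereas the rarest guide had more than 30 reads in cells in 12 of the other 15 transcripts. The part of counting error in the place of this pair was not tested.

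**Figure D4:**
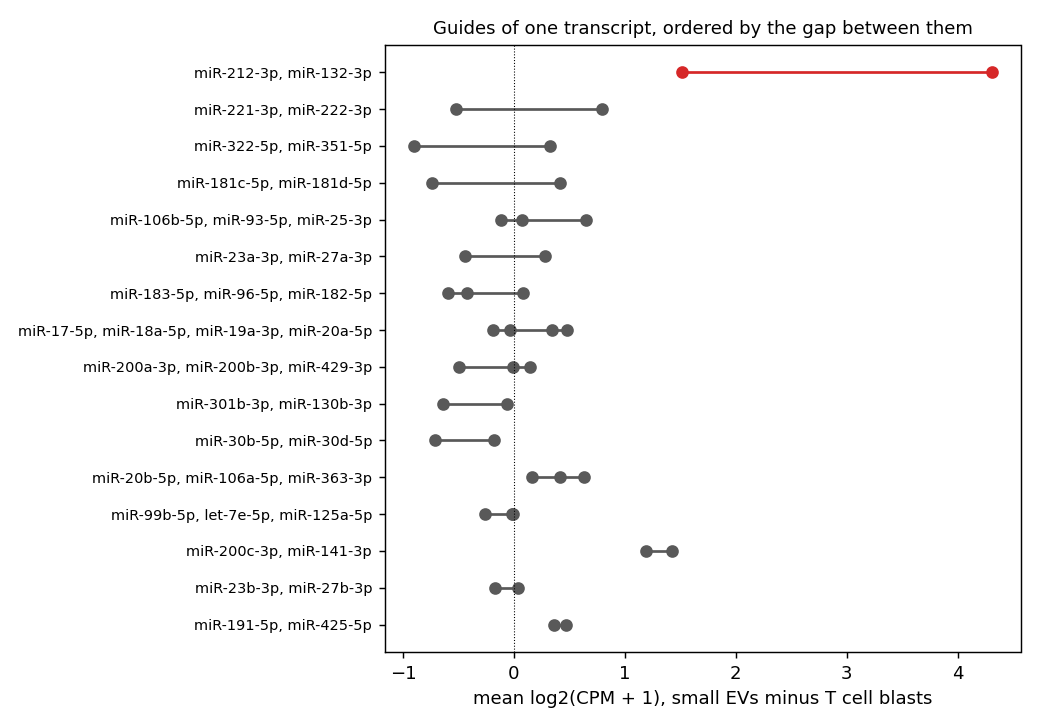
Difference in mean log2(CPM + 1), small EVs minus T cell blasts, for each guide made from a single locus (points) of 16 shared transcripts, with a line joining the guides of one transcript and the transcripts ordered by the gap. The pair mmu-miR-212-3p and mmu-miR-132-3p, in red, spans 1.51 to 4.31, and the other 15 transcripts span 1.32 or less.

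For the arms of one hairpin, 67 precursors had both arms at a mean of 10 CPM or more, a comparison added after the values were seen. The difference of the 5p arm minus that of the 3p arm was -2.48 for Mir212, the fifth largest of the 67 in size, where the median size was 0.70 and the values ran from -3.13 to 2.83. Without T cell blasts 5 it was -1.86, in place 13. Neither arm of Mir212 was close to 0 in its difference between small EVs and cells, and both were higher in small EVs.

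The pattern over the 6 libraries was compared among the 284 miRNAs with a mean of 10 CPM or more, which include the members. Each 3p arm was set against all others of these, by the Euclidean distance of log2(CPM + 1) after centring each miRNA on its own mean. The miRNA closest to mmu-miR-132-3p was mmu-miR-212-5p, at a distance of 0.55, followed by mmu-miR-28a-3p (0.84), mmu-miR-1948-3p (0.88), mmu-miR-146a-5p (0.88) and mmu-miR-3470b (0.94). Of these, mmu-miR-146a-5p is a known NF-κB target in lymphocytes and had 5788 ± 821 CPM in small EVs and 1765 ± 194 CPM in cells (SD, n = 3 each). The miRNAs closest to mmu-miR-212-3p lay further off, led by mmu-miR-703 (1.91), mmu-miR-10a-5p (2.00), mmu-miR-706 (2.07), mmu-miR-125b-5p (2.08) and mmu-miR-190b-5p (2.08). Only mmu-miR-10a-5p among these 5 was abundant in cells, with 702 ± 201 CPM there and 5815 ± 1527 CPM in small EVs (SD, n = 3 each). The others had 0 to 8 reads in all cells together, and mmu-miR-125b-5p, with 50 reads in small EVs and none in cells, was higher by a factor of at least 10.2, taking 3 reads in all cells together as the floor. The arm of the same hairpin, mmu-miR-212-5p, was in place 13 (3.44) and mmu-miR-132-3p in place 23 (3.87) by likeness to mmu-miR-212-3p. All these distances share the same 6 libraries.

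Other miRNAs that lymphocytes induce on activation went both ways, and their calls depended on the fit. Of 16 on that list, all measured, 4 were higher in small EVs, 1 was lower and 11 did not pass in limma without a block, with a median difference of 0.02, beside 0.02 over all miRNAs. With the replicate block 6 were higher and 4 lower, so that 6 did not pass. Without T cell blasts 5, 6 were higher, and without T cell blasts 1, 3 were lower. Its most abundant members were mmu-miR-92a-3p, with 138875 ± 6237 CPM in small EVs and 153280 ± 13649 CPM in cells, and mmu-miR-21a-5p, with 125287 ± 11704 and 127942 ± 12603 CPM (SD, n = 3 each), and neither passed. By contrast, mmu-miR-155-5p rose, with 7339 ± 1049 CPM in small EVs and 3066 ± 858 CPM in cells (SD, n = 3 each; log2 difference 1.29, standard error 0.22, adjusted p = 0.0063, limma). Its difference was closer to that of mmu-miR-132-3p than to that of mmu-miR-212-3p.

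Of 15 miRNAs of a neuronal list, on which the cluster would often be placed, 5 were measured, 2 were higher in small EVs and none was lower. Over all miRNAs, 21.1% were higher and 12.4% lower. The most abundant of the neuronal list was mmu-miR-128-3p, with 756 ± 165 CPM in small EVs and 469 ± 56.3 CPM in cells (SD, n = 3 each; adjusted p = 0.0473, limma). The next in abundance, mmu-miR-7a-5p, had 112 ± 32.2 CPM in small EVs and 128.6 ± 21.7 CPM in cells (SD, n = 3 each) and did not pass. The other one called higher was the rarer mmu-miR-138-5p, on 16 reads in small EVs and 2 in cells (adjusted p = 0.0886, limma). Its call was lost without small EVs 1 or 5 and in DESeq2.

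Markers of other cells moved in the same direction as mmu-miR-212-3p, and so did some T lymphocyte miRNAs. Of these, mmu-miR-342-3p had 20575 ± 3561 CPM in small EVs and 2348 ± 308 CPM in cells (SD, n = 3 each). Its log2 difference was 3.13 (adjusted p = 2.96e-05, limma). Over the 7 miRNAs of the T lymphocyte list the median difference was 0.64, with 4 higher and 2 lower. Of 14 stromal and endothelial miRNAs 11 were measured, and all 11 were higher in small EVs in limma, 9 of them in DESeq2. The summed level of the 11 was 3222 to 5759 CPM in small EVs, against 232 to 306 CPM in T cell blasts. Of these 11, 6 had no read in cells. All 5 red cell miRNAs were higher as well in limma, 3 of them in DESeq2, with a summed level of 1215 to 1861 CPM in small EVs, against 246 to 258 CPM in cells, and mmu-miR-451a, mmu-miR-144-3p and mmu-miR-144-5p, which define the lineage, had no read in cells. The only measured miRNA of 4 on a myeloid list, mmu-miR-223-3p, had 22 reads in small EVs and 1 in cells. Since the authors kept miRNAs with 1 CPM in at least 3 libraries, the direction of rows without cell reads was fixed by that filter. The 3 members of the miR-132/miR-212 cluster passed it on the cell libraries alone. The part of other cell types, or of their vesicles, in the level of the members was not tested.

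The letters GGAG, described in human T cells as a motif of miRNAs sorted into exosomes, were in no arm of the cluster, and were in 7.84% of the 370 listed miRNAs with a sequence in the reference. The letters GGCU, described as such a motif in mouse hepatocytes, were in mmu-miR-212-5p at bases 6 to 9, where they overlap the seed, and in mmu-miR-132-5p, and in 11.6% of the 370. Both were searched on the strand of the mature RNA. Neither was in mmu-miR-212-3p or mmu-miR-132-3p.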

How the data were processed

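Small RNA libraries of 3 small EV preparations and 3 T cell blast cultures were sequenced as single reads of 75 bp. The authors removed adaptors with Cutadapt, dropped reads under 20 bp or left untrimmed, mapped what remained to the mature mouse sequences of miRBase 21 and counted with RSEM (1.17 in the submitters' processing notes, which also name CASAVA 1.8.2 and BWA). The methods name bowtie or BWA. The deposited signal is reads per 1000000 after TMM scaling by the authors in edgeR (log-ratio trim 0.4), for miRNAs with 1 CPM in 3 libraries. Such alignment may misplace reads between near-identical miRNAs, which was not tested for the 3p arms.

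Each value was a whole multiple of the worth of 1 read (100% within 0.05 reads), which gave back the reads. Groups were compared on log2(CPM + 1) with limma 3.58.1 (R 4.3.3, trend, no block) over all miRNAs listed, at a Benjamini-Hochberg adjusted p under 0.2. Of these, limma called 151, edgeR 4.0.16 on the recovered reads 143 and DESeq2 1.42.0 105. p-values set the difference between the groups against the spread between these libraries, without pairs in the main fit. Alternatives were pseudocounts of 0.5 and 5, a mean of 10 CPM, 3 scalings, a replicate block, each library left out, both count tools and an adjusted p of 0.05. Deviations from the group means over 284 miRNAs correlated between same-numbered libraries (0.15, 0.16 and 0.34 for numbers 1, 2 and 5). The numbers were taken as pairs only in the fits with a replicate block, and the main fit used no pairs. The labels share these numbers but do not state a pairing. Small EVs 1 correlated with T cell blasts 2 at 0.17 and small EVs 2 with T cell blasts 1 at 0.11. The correlations thus do not tell pairs 1 and 2 apart. Named miRNAs were the members, the 5 nearest patterns to each 3p arm, the guides at both ends of the transcript order and the most abundant of each list. Members, lists and tests were chosen with earlier results of these data known.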

Additional observations from a re-analysis of the deposited data

How the results depend on the processing

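The difference of each measured arm kept its direction under the 17 alternatives, with 3.64 to 4.76 for mmu-miR-212-3p, 1.32 to 1.68 for mmu-miR-132-3p and 1.60 to 2.09 for mmu-miR-212-5p on the log2 scale. Leaving out one library gave 2.11 to 3.16 for the log2 ratio of the 3p arms and -2.91 to -1.86 for the Mir212 arms, both extremes from T cell blasts 2 and 5. The replicate block left the 3 differences at 4.31, 1.51 and 1.83, and gave 73 miRNAs lower, against 56 without it. In limma it changed the call of 5 named miRNAs, all of which passed with it, mmu-miR-150-5p (-0.33), mmu-miR-182-5p (-0.42), mmu-miR-221-3p (0.79), mmu-miR-222-3p (-0.52) and mmu-miR-425-5p (0.36), and of no other named one. In DESeq2 with the block mmu-miR-150-5p, mmu-miR-182-5p and mmu-miR-425-5p did not pass (adjusted p = 0.305, 0.225 and 0.218). The counts became 61 higher when only miRNAs at a mean of 10 CPM were tested, 58 higher and 29 lower at an adjusted p of 0.05, 63 higher in DESeq2, and 36 lower in DESeq2 with the block. Between 77 and 103 were higher, and between 46 and 67 lower, when single libraries were left out. The median difference of all miRNAs was 0.19 at a sum of 1000000 per library, with 110 higher and 48 lower, and -0.14 when scaled to miRNAs under 5%, with 81 higher and 78 lower. Some differences not called over all libraries changed sign. At a sum of 1000000, mmu-miR-21a-5p was at 0.14, mmu-miR-92a-3p at 0.035 and mmu-miR-27b-3p at 0.0016. The value of mmu-miR-23b-3p was -0.13 when scaled to miRNAs under 5%, -0.026 in edgeR and -0.018 in DESeq2. With single libraries left out, mmu-miR-150-5p ran from -0.996 to 0.15, mmu-miR-21a-5p from -0.10 to 0.041, mmu-miR-222-3p from -0.85 to 0.043, mmu-miR-23b-3p from -0.15 to 0.34 (the upper end, without T cell blasts 5, was called) and mmu-miR-27b-3p from -0.28 to 0.016, and the cause was not tested. Depth limits the members in cells, where mmu-miR-212-3p and mmu-miR-212-5p had 13 and 12 reads.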
